A study of Mus musculus with 5 samples.

Results

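The cytosolic ribosomal protein genes were followed in 1954 single spiral ganglion neurons of the mouse cochlea. All gene symbols were taken that begin with Rps or Rpl and a digit, together with Rpsa, Rplp0, Rplp1 and Rplp2. Kinase genes of the Rps6k family and names with -ps were left out. This gave 85 of the 14715 genes measured. They comprise 31 genes of the small ribosomal subunit, 46 of the large subunit, and 8 that are paralogs of such genes or only share the prefix. Rps19bp1 encodes a binding protein of Rps19 and no ribosomal subunit, and Rpl7l1 a factor of ribosome assembly. Both belong to the last set, so the name of the group fits most of its members and not all. GENCODE M21 annotates 2 members, Rps4l and Rpl37rt, as transcribed processed pseudogenes. By its symbol Rpl37rt is counted here among the large subunit genes, whereas Rps4l is counted with the paralogs.

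The study asked how Runx1, a transcription factor, bears on the diversity of auditory sensory neurons. Control mice carried bhlhb5-Cre/+ and Ai14/+, a Cre-dependent tdTomato reporter, and gave 2 samples. CKO mice carried bhlhb5-Cre/+, Ai14/+ and Runx1F/F, a homozygous floxed Runx1 allele, and gave 3 samples. Mice of both sexes were 30 to 33 days old, no other treatment is named, and cells were sorted for tdTomato. Both genotypes share the Cre and the reporter. Cre is driven by bhlhb5 and acts from embryonic stages, so CKO values at this age would describe neurons that developed under the deletion. The counts used here show neither the time of the deletion nor the deletion itself. Whether animals were pooled within a sample is not given in the sources used here. Messenger RNA was counted from its 3′ end with unique molecular identifiers (UMIs), and a level is the mean number of UMIs per 10000 UMIs of a cell.

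The spiral ganglion holds type I neurons, which contact inner hair cells, and a minority of type II neurons, which contact outer hair cells. Cells were called type II at a Dupd1 level of 1 or more, else Ic at an Lypd1 level of 3 or more, else Ia at a Calb2 level of 150 or more, and else Ib. No ribosomal protein gene enters these limits, so the comparisons between classes do not use what chose the members. Control gave 119 type II, 242 Ia, 395 Ib and 314 Ic neurons, and CKO gave 152, 384, 216 and 132. Within a factor of 2 of a limit lay 8 of 1954 cells for Dupd1, 46 of 1683 for Lypd1 and 793 of 1237 for Calb2, so the border between Ia and Ib cuts a continuous range. Of 6 further type II markers, which the limits did not use, Th, Plk5 and Prph averaged 5.09, 4.63 and 2.83 in control type II neurons and at most 0.0436 in any control type I class. Ngfr had 8.95 against at most 0.978, whereas Etv4 stood at 0.0068 in control type II and Smad3 had 0 UMIs there. Runx1 messenger RNA was not lower in CKO, at 1.65 in CKO Ia neurons against 0.223 in control, 2.36 against 1.73 in Ib and 2.51 against 1.84 in Ic. Which exon the allele deletes is not given in the sources used here, so a count from the 3′ end does not check the deletion.

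A genotype is recorded for each cell and a sample is not. Control and CKO are therefore 1 pool of cells each, with no replicates, and no test between them was possible. The columns of the matrix fall into 5 runs of alphabetically ordered barcodes, called stretches here, of which 2 and 5 hold control cells and 1, 3 and 4 hold CKO cells. No source used here names the sample behind a stretch, and stretches are used to show spread, not as replicates. Median UMIs per cell by stretch ranged from 33694 to 49000. Genes of the Y chromosome and Xist, the RNA of the inactive X chromosome, separated 858 cells from 981, and stretch 4 had 0 cells of the first kind. One barcode occurred in both genotypes. Intervals given below are exact 95% intervals and cover counting error only.

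A ribosome is built from ribosomal RNA and a large set of proteins, assembled into a small subunit that reads the messenger RNA and a large subunit that joins the amino acids. The proteins are made in near equal amounts. Their messenger RNAs share a start known as the 5′ terminal oligopyrimidine (TOP) tract, a C followed by a run of C and T bases, through which mTORC1 signalling and the protein Larp1 set how strongly they are translated. Translation of messenger RNA in neurons takes place in the cell body and, for some messages, in the axon.

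The RefSeq table of start sites (GRCm38.p6) held 64 of the 85 members. The windows below span the annotated start, with 15 bases before it and 15 from it on. They show starts of the kind described for 6 members, chosen for display after the sequences were seen, and the start of Rps2, the member that differed most between the genotypes. Capitals mark the unbroken run of C and T that includes the base at the annotated start.
Rpl35 (chr2:39005117-39005146, minus strand): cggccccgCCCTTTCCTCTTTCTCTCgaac
Rps6 (chr4:86857353-86857382, minus strand): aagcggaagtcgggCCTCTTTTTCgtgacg
Rpl28 (chr7:4792950-4792979, plus strand): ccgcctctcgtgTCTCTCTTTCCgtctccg
Rplp2 (chr7:141447636-141447665, plus strand): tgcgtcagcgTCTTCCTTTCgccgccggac
Rpl38 (chr11:114668565-114668594, plus strand): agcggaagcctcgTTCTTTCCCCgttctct
Rps10 (chr17:27635230-27635259, minus strand): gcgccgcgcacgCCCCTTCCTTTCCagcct
Rps2 (chr17:24720048-24720077, plus strand): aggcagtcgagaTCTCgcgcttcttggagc
The run was 18 bases long at Rpl35, between 10 and 13 at the other 5, and 4 at Rps2. Within 50 bases on either side of the start, the letters CTTTC stood on the gene's own strand in 32 of 64 members, or 50%, and in 14.6% of 27025 genes. On either strand the shares were 62.5% and 26.2%. CTCTTT, which overlaps CTTTC where a C follows it, stood on the gene's strand in 28.1% of members and 4.68% of all genes, and on either strand in 29.7% and 8.88%. These matches describe letters in the window and were not tied to the levels below.

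Ribosomal protein messages made up 4.75% of the UMIs of a control type I neuron on average, and 9.83% of those of a control type II neuron. CKO neurons showed the same arrangement, with 4.69% in type I and 9.92% in type II. The 90% of cells between the lowest and the highest 5% ran from 3.03% to 5.79% in control type I and from 8.03% to 11.9% in control type II, so the bulk of the classes did not overlap. The mean in type I neurons by stretch was 4.45% in stretch 1, 4.68% in 2, 4.93% in 3, 4.70% in 4 and 4.81% in 5. In type II neurons it was 9.49%, 9.94%, 10.1%, 10.5% and 9.67% in the same order. Type II was higher in 5 of 5 stretches, by 2.01-fold to 2.24-fold. Counted over summed UMIs, the control type II rate was 2.03 times the type I rate, with an interval of 2.03 to 2.04.

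**Figure D1:**
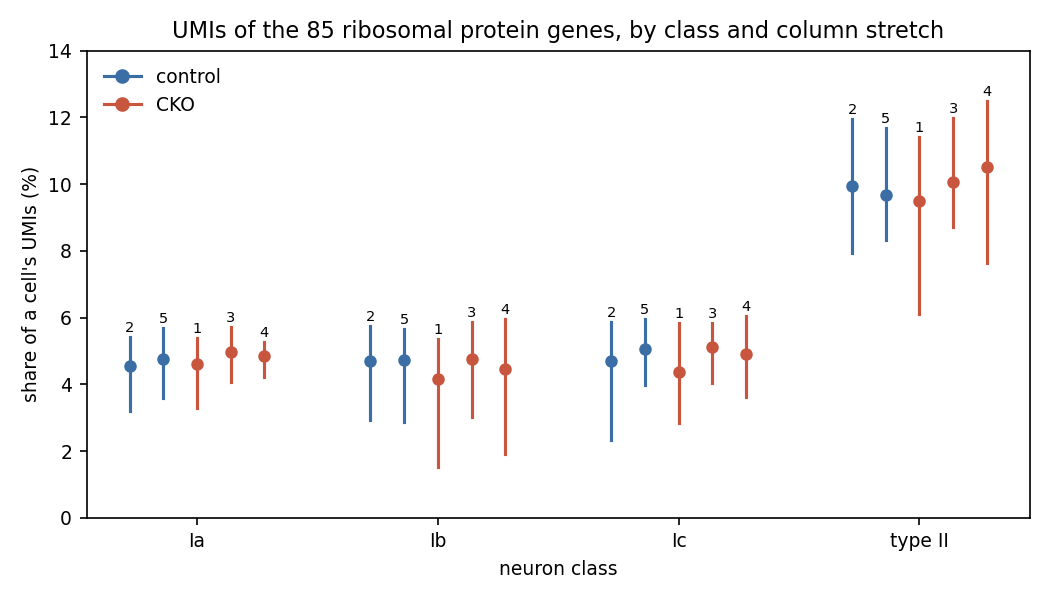
Share of a cell's UMIs that came from the 85 ribosomal protein genes (vertical axis, percent) by neuron class and stretch, with dots for means over cells, lines from the lowest to the highest 5% of cells, and the stretch number above each line. All 5 type II means lie between 9.49% and 10.5%, and all 15 means of the type I classes lie between 4.18% and 5.13%. The lowest of these 15, for Ib in stretch 1, includes 1 cell at 27.5%.

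The difference between type II and type I was also present in the number of molecules. A control type II neuron held a median of 2575 ribosomal protein UMIs against 1951 in type I, a ratio of 1.32, while its UMIs of all other genes were fewer, 22634 against 37550. In CKO the medians were 2732 and 2333, a ratio of 1.17. At a like depth of 20000 to 30000 UMIs per cell, the mean share was 10.1% in 86 control type II neurons and 4.72% in 95 control type I neurons. RNA of satellite glia moved with type II: the summed level of Apoe, Fabp7, Ednrb and Sparc was 18.2 in control type II and 0.620 in type I, led by Apoe at 12.3 in type II. Cryab, the fifth satellite marker, went the other way, with 2.60 in type II and 5.03 in type I, so that all 5 summed to 20.8 and 5.65. The 7 Schwann cell markers were lower in type II, 12.7 against 23.8. Macrophage markers summed to at most 0.0764 and hair cell markers to at most 0.299 in any genotype and type. Among neurons in which these 12 glial genes together stayed below 5 (63 control type II and 341 control type I), the share in type II was 2.32 times that in type I, a larger ratio than over all cells. This limit also bears on depth. Control type I neurons below 20000 UMIs had a median glial level of 0.748 and a mean share of 3.39%. Those of 40000 to 50000 UMIs had 35.8 and 4.91%. The part of depth in the larger ratio was not tested.

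Within type I, the 3 classes differed little. In control, Ia, Ib and Ic neurons had mean shares of 4.70%, 4.71% and 4.85%, and in CKO 4.80%, 4.46% and 4.76%. No member at a mean of 0.5 or more was 1.5-fold apart between any 2 of the type I classes, in control (0 of 78 in each of 3 comparisons) or in CKO (0 of 78 or 79). Over all genes, 3.17% were 1.5-fold apart between control Ia and Ib, 6.97% between Ia and Ic and 2.38% between Ib and Ic, in either direction. In CKO the corresponding shares of all genes were 1.94%, 5.60% and 1.69%. The largest control difference among the members was that of Rps2, lower in Ia than in Ic by 0.58 on the log2 scale, log2((Ia + 0.1)/(Ic + 0.1)). Stretch 5 held 190 of the 242 control Ia neurons and 129 of the 314 control Ic neurons. Rps2 averaged 0.555 in type I neurons of stretch 5 and 0.955 in those of stretch 2. The part of stretch in the class difference was not tested. The mean share was lower in cells with few UMIs than in deep ones. Control type I neurons below 20000 UMIs had 3.39% and those of 40000 to 50000 had 4.91%, and the median level of Malat1, a nuclear RNA, was 443 and 151 in the same cells. The part of these values in the comparisons was not tested.

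The members themselves spanned a wide range. Over all cells, members with high mean levels were Rplp1, a protein of the flexible stalk of the large subunit, at 17.6, Rpl13 at 13.8, Rpl41, the shortest ribosomal protein, at 13.4, Rps27a, made as a fusion with ubiquitin, at 12.9 and Rps24 at 12.9. The median over the 77 subunit genes was 7.28. Levels in a 3′ assay count molecules and need no length correction, but they depend on how well each 3′ end could be assigned. Rpl30, Rpl34 and Rps27, all counted as subunit genes, stood almost at 0, with means of 0.00592, 0.0375 and 0.0467. How much of their RNA the counts hold was not tested. Rps27l, a paralog of Rps27, had a mean of 0.970.

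How far a 3′ end could be assigned was examined in the GENCODE M21 transcripts, the annotation of GRCm38, the assembly that mm10 denotes. All 50-base words of the last 300 bases of each member's coding transcripts were looked up in the transcripts of other genes. Of 83 members with such a transcript, 40 shared more than 50% of their words with another gene and 14 shared less than 10%. Rpl30 shared 79.3%, Rps27 58.5% and Rpl34 30.2%. The median level was 7.44 for 38 subunit genes above 50% and 7.24 for 38 at or below it. Rpl35 shared 96.0% and had a mean of 8.49. In this list, Rpl29 had the most genes with a common word, 82, of which 77 are annotated as pseudogenes. Rpl21 followed with 67, of which 66 are pseudogenes, Rpl7a with 65, and Rps2 with 61, of which 58 are pseudogenes. The median member had 7.

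Gene by gene, type II neurons were higher for almost every subunit gene. A gene was counted at a mean of 0.5 or more in either group and a ratio of at least 1.5, log2((II + 0.1)/(I + 0.1)). In control, 71 of 80 members were higher and 1 was lower, where 21.7% of 4369 genes were higher and 23.4% lower. The median log2 difference was 0.97 over these members and 0.02 over all genes. At least 2-fold higher were 39 members, against 12.2% of all genes. All 74 subunit genes at that mean were higher in type II in 5 of 5 stretches. They include the annotated pseudogene Rpl37rt, at 0.358 in control type I and 0.821 in control type II. In CKO 72 of the 80 members were higher, against 22.5% of all genes. The control and CKO differences ranked the members alike, with Pearson's r = 0.96 and Spearman's rho = 0.96 across the 80 genes, which are not independent replicates.

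**Figure D2:**
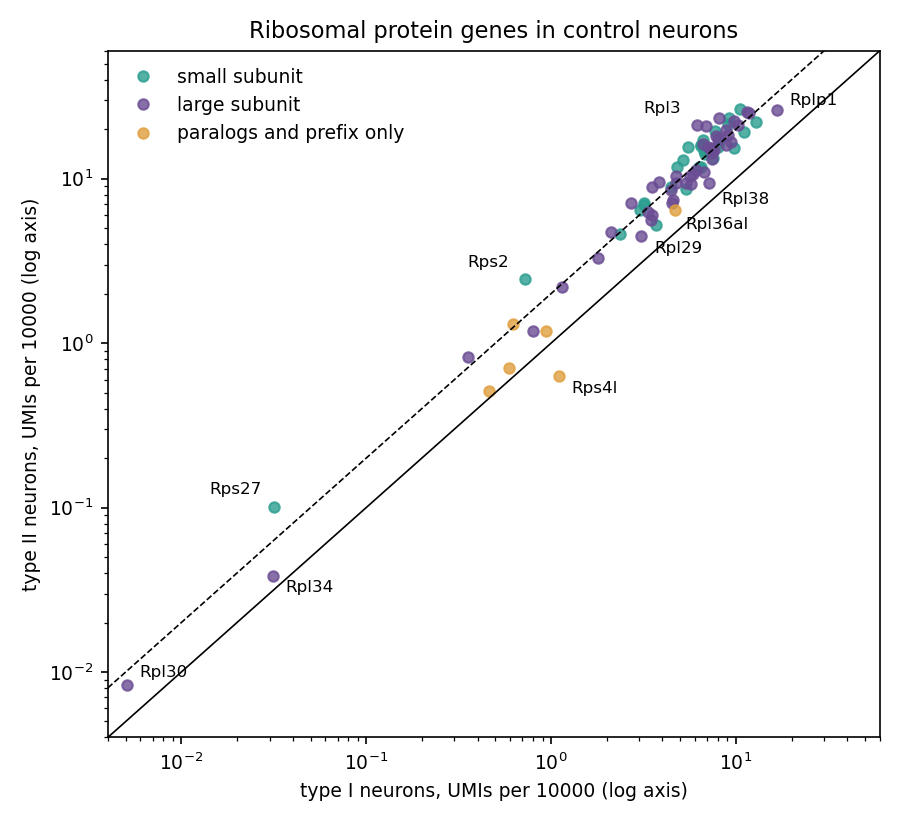
Mean level of each member in control type I neurons (horizontal) and control type II neurons (vertical), UMIs per 10000 on log axes, coloured by subunit; the solid line marks equal levels and the dashed line a ratio of 2. Rpl3 and Rps2 lie above the dashed line and Rps4l below the solid line, and Rpl3l and Rpl39l, with 0 UMIs in control type II, are not drawn.

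In the large subunit, 41 of 44 members at that mean were higher in control type II, with a median log2 difference of 0.95. Rpl3 (chr15:80077791-80091868, minus strand, GRCm38) encodes a core protein next to the site of peptide bond formation. It had 6.37, 5.96, 6.60, 6.88 and 6.36 in type I neurons of stretches 1 to 5. In type II its values were 19.5, 22.2, 19.7, 23.3 and 19.7. Every type II value exceeded every type I value, and the control log2 difference of 1.76 was the largest among the members. Rpl10, which joins the large subunit late in its assembly, had 6.86 in type I and 21.0 in type II, and Rpl27a 8.08 and 23.2. Of the stalk proteins, Rplp1 and Rplp2 were less far apart, with log2 differences of 0.65 and 0.67. Rplp0, at 0.97, lay near the large subunit median of 0.95, and Rpl12, which sits at the base of the stalk, differed by 1.37. Among the 8 measured proteins at the peptide exit tunnel and its rim, 7 were higher, near the 41 of 44 of the large subunit. Rpl38 had the smallest difference among large subunit genes at a mean of 0.5 or more, 0.38, at 7.16 in type I and 9.36 in type II.

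In the small subunit, 29 of 30 members were higher in control type II, with a median log2 difference of 1.07. Rps2, at the channel through which messenger RNA enters, had 0.727 in type I and 2.45 in type II. All 6 genes listed for entry and exit of messenger RNA were higher, near the 29 of 30 of the small subunit. Rps6, the target of S6 kinases downstream of mTORC1, had 6.46 in type I and 11.9 in type II. Rpsa, a small subunit protein also known as a laminin receptor, was less far apart, at 9.79 and 15.4. Rps27a had 10.5 in type I and 26.5 in type II. Of the 15 genes at that mean in which inherited changes cause Diamond-Blackfan anaemia, 14 were higher. This is near the 70 of 74 of all subunit genes, so none of these lists stood out from its family. The subunits kept about the same balance: the summed level of large subunit genes was 1.39 times that of small subunit genes in control type I, 1.34 in control type II, 1.35 in CKO type I and 1.30 in CKO type II.

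The 8 paralogs and prefix-only genes behaved otherwise, with 1 higher and 1 lower of 6 at that mean and a median log2 difference of 0.27. Rps4l (chr6:148354656-148355598, plus strand), a copy of the small subunit gene Rps4x, was the 1 member at least 1.5-fold lower in control type II, at 0.632 against 1.10 in type I, a log2 difference of -0.71. In the type I neurons it had 0.602, 0.791, 1.27, 1.48 and 1.33 in stretches 1 to 5, and in type II 0.699, 0.606, 1.01, 0.763 and 0.670. Type II was lower in 4 of the stretches and higher in stretch 1, and in CKO the log2 difference was -0.25. Rps4x itself had 6.65 in type I and 17.3 in type II. Rpl22l1, a paralog of Rpl22, was higher, at 1.30 against 0.619. Rpl36al, a paralog of Rpl36a, had 6.47 against 4.66. Rps27l, Rpl7l1 and Rps19bp1 differed by 0.31, 0.23 and 0.13 on the log2 scale. Rpl3l, known from striated muscle, and Rpl39l, known from the testis, had 0 UMIs in control type II and means of 0.0014 and 0.0017 in control type I.

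Values follow for 2 ribosomal proteins that carry other names. Fau, a fusion with the small subunit protein Rps30, had 13.6 in control type I and 26.8 in type II. Gnb2l1, the scaffold protein also called Rack1, had 3.77 in type I and 6.41 in type II. Elongation factors and other TOP messages were higher for 8 of 16, with a median log2 difference of 0.59. Eef1a1, the general factor that brings transfer RNA to the ribosome, had 6.55 in type I and 37.6 in type II, while Eef1a2, its counterpart in mature neurons and muscle, had 7.32 in type I and 6.07 in type II. Tpt1, a TOP message for a growth-related protein, had 15.2 in type I and 27.4 in type II, and Eef2 9.19 and 14.5.

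Medians of other parts of the translation machinery lay nearer to 0, and their counts are to be read beside the 21.7% of all genes that were higher and the 23.4% that were lower. Of 23 initiation factors, 3 were higher and 0 lower in control type II, with a median of 0.31. The most abundant were Eif1, at 16.7 in type I and 17.7 in type II, Eif4a2 at 6.38 and 8.70, Eif4g2 at 4.88 and 4.18 and Eif5a at 4.38 and 5.72. Of 11 ribosome biogenesis genes at that mean, 2 were higher, with a median of 0.21. Ncl had 4.44 and 6.16, Nop10 3.02 and 3.51, and Nop56 1.46 and 1.11. Of 5 genes listed for mTORC1 signalling, TOP regulation and Rps6 kinases, 0 were higher and 1 was lower. The lower gene was Rps6ka3, a kinase of the Rps6 kinase family, at 0.216 in type II against 1.60 in type I. Rheb had 1.96 in type I and 2.23 in type II, Rps6kb1 0.930 and 0.994, and Larp1 0.931 and 0.603. Genes of the mitochondrial ribosome, a separate machine with its own proteins, were higher for 2 and lower for 9 of 61, with a median of -0.16. Mrpl12 had 2.92 in type I and 1.54 in type II and Mrpl42 2.82 and 1.23, whereas Mrps33 had 2.30 and 2.43. Of 3 heat shock and immediate early genes at that mean, Hsph1 and Jun were lower in type II, at 0.877 against 2.28 and 1.31 against 2.06.

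**Figure D3:**
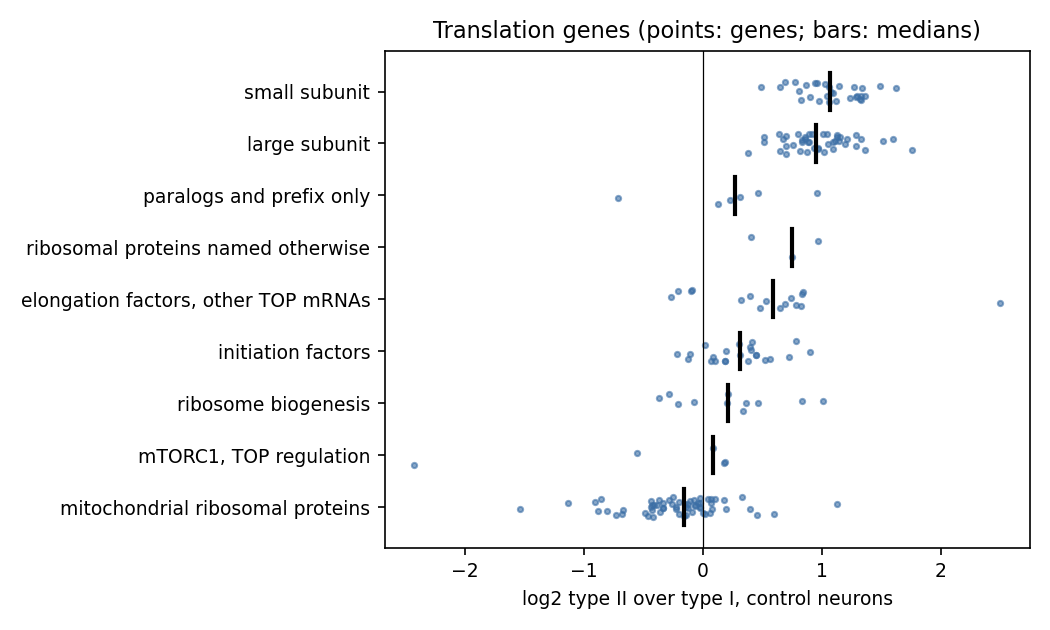
Log2 ratio of control type II to control type I for each gene at a mean of 0.5 or more (dots), by list, with bars for medians. The 2 subunit lists have medians of 1.07 and 0.95, and the mitochondrial ribosomal proteins -0.16.

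Between the genotypes, the summed share over cells of all depths differed little, and most in Ib. CKO over control was 0.987 in type I neurons, 1.01 in type II, 1.02 in Ia, 0.945 in Ib and 0.983 in Ic, as ratios of mean shares. In type I neurons of 20000 to 30000 UMIs the difference was larger, at 3.73% in 66 CKO cells and 4.72% in 95 control cells. The median Malat1 level there was 325 in CKO and 169 in control, and the median level of the 12 glial genes was 32.0 and 0.990. Below 20000 UMIs the shares were 3.19% in 50 CKO cells and 3.39% in 72 control cells. At 30000 to 40000 UMIs the CKO and control shares were 4.85% and 4.88%, and at 40000 to 50000 they were 5.06% and 4.91%. The parts of depth and of glial RNA were not tested. The 3 CKO stretches, at 4.45%, 4.70% and 4.93% in type I, lay on both sides of the control stretches at 4.68% and 4.81%. The sign of the type I ratio rested on single stretches, at 1.022 without stretch 1 and 1.002 without stretch 5. Over all neurons the ratio was 1.05, with 5.59% in CKO and 5.32% in control, and type II neurons made up 17.2% of CKO and 11.1% of control cells. By stretch they were 72 of 482 and 47 of 588 cells in control stretches 2 and 5. In CKO stretches 1, 3 and 4 they were 58 of 355, 71 of 372 and 23 of 157. The part in CKO stretch 4 lay below that in control stretch 2. Without stretch 3 the ratio over all neurons was 1.01. One CKO cell of stretch 1, in class Ib, had 27.5% ribosomal protein UMIs, and the next highest type I cell had 11.1%. It also had a level of 114 for Apoe and 97.8 for Coch, a gene whose mean in control type I neurons was 0.00176. Without this cell the type I ratio was 0.980. The Ib ratio of 0.945 includes this cell and was not computed without it. The median share in Ib was 4.66% in CKO and 4.81% in control.

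Member by member, 1 of 78 was 1.5-fold higher in CKO type I neurons and 0 were lower, where 0.536% of 3732 genes were higher and 0.536% lower. The log2 difference, log2((CKO + 0.1)/(control + 0.1)), was within 0.2 either way for 73 of 78, and the median was -0.01 over the members and -0.03 over all genes. The member past 1.5-fold was Rps2, with a log2 difference of 1.23. Rpl31, at the rim of the exit tunnel, followed at 0.19, Rps24 at 0.15, Rpl36al at 0.14 and Rps20 at 0.11. The lowest were Rpl29 at -0.55, Rpl21 at -0.47, Rpl37 at -0.31, Rpl10a at -0.27 and Rpl13a at -0.17. In type II neurons, which are other cells of the same pools, Rps2 had a log2 difference of 0.86, Rpl29 -0.48 and Rpl21 -0.48. The other lists named next had no gene at that mean 1.5-fold apart between the genotypes in type I. They gave 0 of 16 elongation factors and TOP messages, 0 of 23 initiation factors and 0 of 10 biogenesis genes. Likewise 0 of 5 genes listed for mTORC1 signalling, TOP regulation and Rps6 kinases were apart. The same held for 0 of 63 mitochondrial ribosomal proteins and 0 of 3 heat shock and immediate early genes. With so few of all genes apart, 0 in lists this short does not set them apart from other genes. The heat shock and immediate early list holds 11 genes, most below that mean. Among those below it, Atf3 had 0.163 in control and 0.0517 in CKO, and Egr1 0.121 and 0.0275. In this list only Hsph1 was higher in CKO, at 2.35 against 2.28. Across the 78 members Pearson's r between the 2 types was 0.82 and Spearman's rho 0.66, as a description of genes that are not independent.

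**Figure D4:**
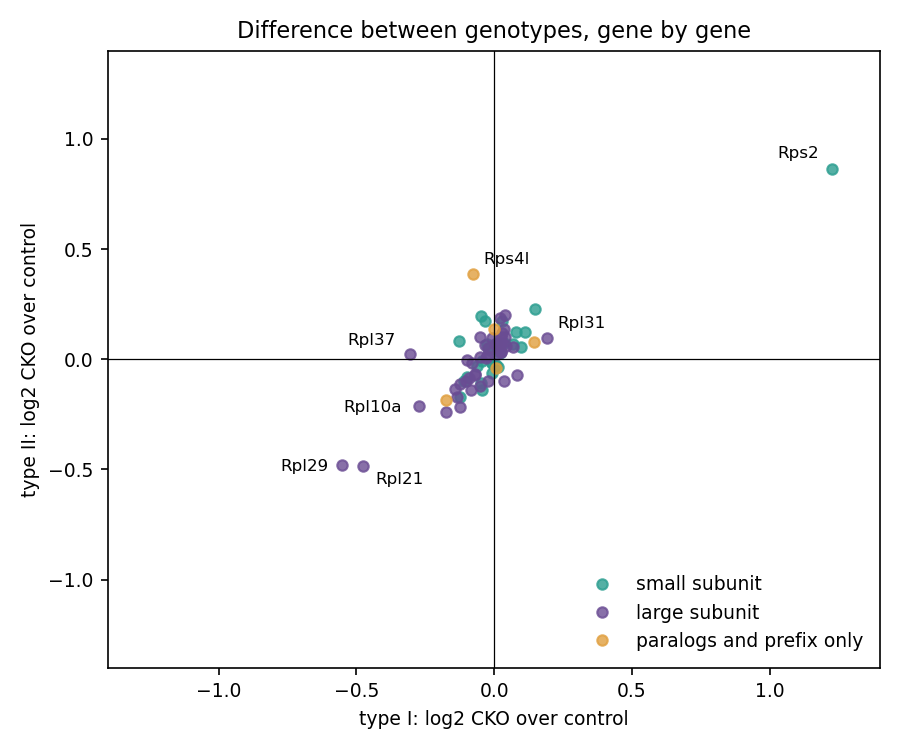
Log2 ratio of CKO to control in type I neurons (horizontal) and in type II neurons (vertical) for the 78 members at a mean of 0.5 or more in type I, coloured by subunit. Rps2 stands at 1.23 and 0.86, Rpl29 and Rpl21 stand at the lower left, and most members lie within 0.2 of 0 in type I.

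By stretch, the CKO values lay all above the control values for 8 of 78 members and all below for 3, against 4.13% and 11.2% of all genes, and they overlapped for 67. Those above were Rps2, Rps24, Rps20, Rps3a1, Rpl3, Rpl11, Rpl19 and Rpl36al. Rps24 had 11.4, 12.8 and 12.7 in the CKO stretches 1, 3 and 4 and 10.9 and 11.2 in the control stretches 2 and 5. Rps20 had 7.45, 7.18 and 7.33 against 6.79 and 6.73. Those below were Rplp0, at 3.93, 4.68 and 4.57 against 4.69 and 4.79, Rpl12 and Rpl15. The groups lay close together in each of these except Rps2. These 10 others were all under 1.5-fold in the pools.

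Rpl29, Rpl21 and Rps2 had the widest range over stretches of all members counted. With 0.1 added, 5 of 78 members differed at least 2-fold between their highest and lowest stretch in type I neurons, against 2.52% of all genes. They were Rpl29, Rpl21, Rps2, Rpl37 and Rps4l. By this range Rpl29 held rank 4 of 3732 genes, Rpl21 rank 6 and Rps2 rank 21. The median range without addition was 1.17-fold over the 78 members, and the lowest was 1.03-fold, for Rpl19.

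GENCODE M21 places the Rps2 gene at chr17:24718116-24721929 on the plus strand (GRCm38), and the start shown above, from RefSeq, lies within that span. Rps2 averaged 2.38 in stretch 1, 0.955 in 2, 1.39 in 3, 1.63 in 4 and 0.555 in 5. The 3 CKO values were above both control values. In UMIs the CKO rate was 2.72 times the control rate, with an interval of 2.60 to 2.85. The control value of stretch 5 was an average of unlike cells. Among its type I neurons, 117 cells with Xist had a mean of 2.49, and 390 cells with Y-linked UMIs had a mean of 0.0141, with 94.1% of them at 0 (exact interval 91.3% to 96.2%). In CKO stretch 1 the same 2 kinds of cells had 2.72 and 1.41. The order was not the same in every stretch: cells with Xist and cells with Y-linked UMIs had 1.01 and 0.907 in stretch 2, and 1.15 and 1.61 in stretch 3. By stretch, cells with Xist overlapped between the genotypes, since control stretch 5 at 2.49 lay above CKO stretch 3 at 1.15 and stretch 4 at 1.65. Among cells with Xist alone the log2 difference between CKO and control was 0.38, and among cells with Y-linked UMIs 2.18. Without stretch 5 it was 0.87 over all type I neurons, and without stretch 2 it was 1.56.

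Rpl29 (chr9:106429454-106431568, plus strand), for a small and basic protein of the large subunit, averaged 0.526, 4.57, 4.09, 0.961 and 1.95 in type I neurons of stretches 1 to 5. CKO and control overlapped. In stretch 1, 65.7% of type I neurons had 0 UMIs of Rpl29, in stretch 4 64.9% and in stretch 5 17.4%, against 0% in stretch 2 and 0.332% in stretch 3. For stretch 2, 0 of 410 neurons has an exact upper bound of 0.896%, and the limit of 3 cells is 0.732%. Within stretch 4, 75.4% of the cells with Xist were below a level of 0.5 and 22.2% were above 1.5, so that few lay between. In stretch 1 cells with Xist had 0.652 and cells with Y-linked UMIs 0.0556. In stretch 5, 27.2% of cells with Y-linked UMIs were below 0.5, and 0.855% of cells with Xist. The log2 difference between the genotypes was 0.021 without stretch 1, 0.082 without stretch 2 and -2.06 without stretch 3.

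Rpl21 (chr5:146832890-146837032, plus strand), for another large subunit protein, averaged 2.47, 4.75, 3.89, 0.691 and 3.14 in stretches 1 to 5, so CKO stretch 4 stood alone at the low end. There, 54.5% of type I neurons had 0 UMIs, and in the other stretches at most 1.01%. Of the type I neurons of stretch 4, 126 had Xist, 8 met neither definition and 0 had Y-linked UMIs, and among the 126 with Xist 54.8% had 0 UMIs of Rpl21. Without stretch 4 the log2 difference was -0.26, and without stretch 3 it was -0.96. In type II neurons the values by stretch were 5.11, 10.4, 9.17, 3.49 and 8.13, in the same order from high to low as in type I. Rps2 and Rpl29 in type II were likewise low where they were low in type I: 55.3% of type II neurons of stretch 5 had 0 UMIs of Rps2, and 43.1% of those of stretch 1 had 0 UMIs of Rpl29. These splits followed neither the stretch alone nor the presence of Xist alone: for Rps2 the 2 kinds of cells differed within stretch 5 and lay close together in stretch 2, and for Rpl29 and Rpl21 cells with Xist differed among themselves within stretch 4. Animals are not recorded per cell, and the part of the many related copies listed above was not tested.

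**Figure D5:**
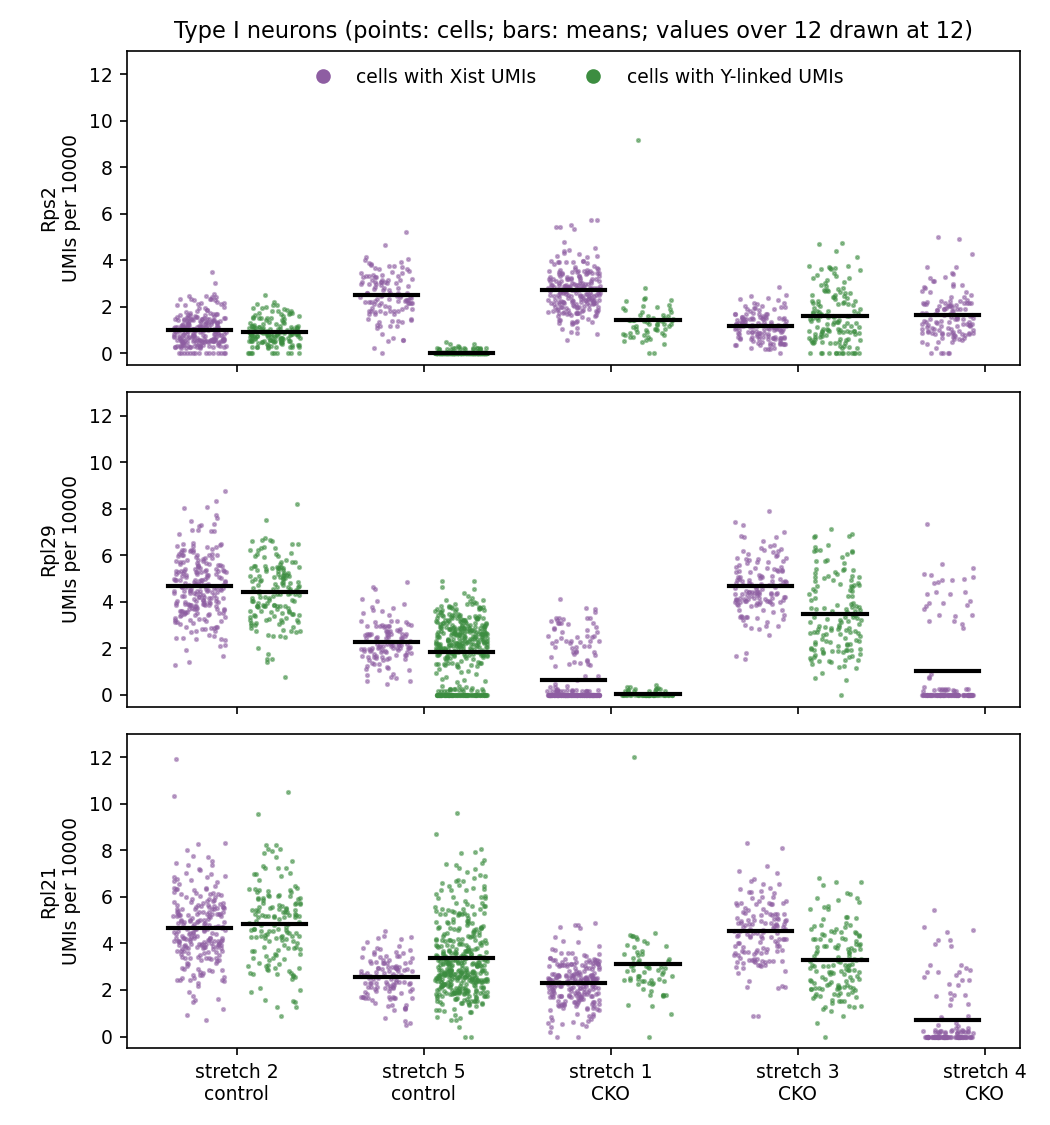
Levels of Rps2, Rpl29 and Rpl21 (vertical, UMIs per 10000) in type I neurons by stretch and by the presence of Xist or Y-linked UMIs, with a dot per cell and a bar for the mean. Cells with Y-linked UMIs in control stretch 5 lie at 0 for Rps2 while cells with Xist average 2.49, and Rpl29 and Rpl21 split into a low and a high set of cells in stretch 4.

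Few other members differed in this way. Between cells with Xist and cells with Y-linked UMIs, type I members at least 1.5-fold apart numbered 3 of 78 in stretch 1 (Rpl29, Rps4l and Rps2), 1 in stretch 2 (Rps4l), 0 in stretch 3 and 1 in stretch 5 (Rps2). Over all genes the shares were 0.670%, 0.429%, 0.456% and 0.563%. The summed share was 4.37% and 4.84% in stretch 1, 4.81% and 4.51% in stretch 2, 5.02% and 4.82% in stretch 3 and 4.47% and 4.93% in stretch 5, so the order of the 2 kinds of cells changed from stretch to stretch. Rpl37 averaged 0.859, 0.573, 0.983, 0.849 and 1.58 in stretches 1 to 5, and its highest and lowest values were both those of control stretches. Rps29, at 4.56, 3.40, 5.26, 4.72 and 6.81, and Rpl38, at 6.84, 5.24, 8.12, 6.30 and 8.61, had the same lowest and highest stretch.

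Across cells, the members varied together. With 951 control type I neurons thinned to 10000 UMIs each, the correlation of a member with the sum of the others had a median of 0.43 over the 66 subunit genes at a mean of 3 or more, from 0.23 to 0.57. The highest were Rplp1 at 0.57, Rps24 at 0.54 and Rpl9, a protein near the base of the stalk, at 0.53. The lowest were Rpl7l1, a factor of ribosome assembly related to Rpl7, at -0.04, and Rpl30 and Rpl3l, whose counts were near 0. Rps2 had 0.01, with 0.19 in stretch 2 and -0.10 in stretch 5. These values share depth of 10000 UMIs and cells of 2 stretches, and low counts hold a correlation near 0. Within stretches, Spearman's rho of the summed share with the summed level of the elongation factor and TOP list was 0.60 to 0.74 in type I neurons. With the mitochondrial ribosomal list it was 0.31 to 0.54, with the glial markers 0.24 to 0.37, and with Malat1 -0.59 to -0.30. These are descriptions over 134 to 541 cells that share a stretch, and all the levels are shares of the same cell total.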

How the data were processed

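The authors deposited a table of 1954 cells and 14715 genes, with a list of each cell's genotype. Its values are on a natural log scale: UMIs were set to 100000 per cell, 1 was added and the ln taken, as the values show. Cell Ranger, Seurat and the build mm10 are named in the submitters' processing notes, with no versions. How cells and genes were filtered, and how doublets were treated, is not given in the sources used here. No doublet caller was run.

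UMI counts were recovered from the deposited natural log values: 100% of values above 0 were whole within 0.01. Levels are UMIs per 10000, averaged over cells. Log2 values add 0.1. The 1954 columns could not be assigned to samples, and cells are not replicates, so no test was run, only exact intervals (Poisson counts compared through a binomial, and Clopper-Pearson). Cells with Xist had at least 4 Xist UMIs and at most 1 UMI of 4 Y-linked genes, and cells with Y-linked UMIs at least 2 of these and at most 1 of Xist. The other 115 cells entered neither. The members, lists and named genes were chosen with earlier results of these data known. Named are the members with the highest levels, the 5 largest and 5 smallest differences in each comparison, all paralogs, 7 members with known roles, up to 4 members of each other list, and the extremes of correlation. Some named genes are not reported here. The level and thinning steps were checked on simulated data. Python 3.11.15, numpy 2.4.6, pandas 2.3.3, scipy 1.17.1 and matplotlib 3.10.9 were used.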

Additional observations from a re-analysis of the deposited data

How the results depend on the processing

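No paired analysis was possible because cells carry a genotype and no sample or replicate number. The type II over type I ratio of shares in control, 2.07, was 2.03 from summed UMIs, 2.05 in cells of 20000 to 40000 UMIs, 2.32 in cells with little glial RNA, 2.06 with doubled class limits, 2.09 without Rplp1, 2.19 relative to all other UMIs, and 2.01 to 2.12 with 1 stretch left out. The count of members 1.5-fold apart between these types, 72 in either direction, was 39 at 2-fold and 71 to 73 with 1 stretch left out. The CKO over control ratio over all neurons, 1.05, was 1.03 from summed UMIs, 1.05 in thinned cells, 1.19 in cells of 20000 to 40000 UMIs, 1.04 with little glial RNA, 1.05 without Rplp1, 1.06 relative to all other UMIs and 1.05 without the cell at 27.5%. With 1 stretch left out it was 1.01 to 1.09. In type I neurons the ratio of 0.987 became 0.994 from summed UMIs, 0.905 at 20000 to 40000 UMIs, 0.982 with little glial RNA, 0.991 with halved limits, 0.980 without the cell at 27.5% and 0.989 in cells with Xist. It passed 1 in cells with Y-linked UMIs, at 1.003, and without stretch 1, at 1.022, or stretch 5, at 1.002, with a low of 0.952 without stretch 3. The cause was not tested. The count of members 1.5-fold apart between genotypes, 1, was 3 at 20000 to 40000 UMIs and 3 with little glial RNA (Rps2, Rpl21 and Rpl29 in both), 2 in cells with Xist (Rpl21 and Rpl29), and 1 to 3 with 1 stretch left out, 3 of these without stretch 3 or 5 and 2 without stretch 2. Settings on cells with Xist or Y-linked UMIs and on the single cell were added after the data were seen. The log2 difference of Rpl29 reversed to 0.021 without stretch 1 and 0.082 without stretch 2, and ran from -2.06 to 0.082 with 1 stretch left out. Rps2 was higher in CKO under each of the 13 settings run for it, from 0.38 in cells with Xist to 2.18 in cells with Y-linked UMIs. These settings reuse the same 2 pools of cells, and within cells with Xist the CKO and control stretches overlapped. Rpl30, Rpl34, Rps27, Rpl3l and Rpl39l had few UMIs and lay below the mean of 0.5 used for the counts.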
